A study of Mus musculus with 6 samples.

Results

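The genes described here are 56 mouse genes of mitosis, the kinetochore and the spindle. They were taken as a named list of cell division genes; no measured value enters the rule, but the list was drawn up with earlier results of these data known. All 56 were found by gene identifier among the 43271 genes of the count table. All 56 passed the filter on low counts and were among the 14101 genes tested, the lowest count of any member in any library being 118. The series profiled RNA of primary brain microvascular endothelial cells, which line the capillaries of the brain, from C57bl/6 mice with the genotype WT (wild type). Cultures of passage 2 to 6 were treated at confluence for 24 h. In 3 libraries they had received only dimethyl sulfoxide (DMSO), the vehicle, and in the other 3 dolutegravir at 5000 ng/ml (DTG), a drug that blocks the integrase of HIV. All 6 libraries came from a medium with growth factors and 5% serum. Library names carry a tag, P4 or P5, that the labels do not define: DMSO replicate 1 and DTG replicates 2 and 3 are P4, and DMSO replicates 2 and 3 and DTG replicate 1 are P5. A further number in these names (1, 1 and 3 in DMSO, 2, 2 and 3 in DTG) is not always that of the title, and no label says what it means. Separate cultures are not named, so p-values reflect only how much these samples vary, and that variation may be technical.

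Cells enter mitosis when cyclin-dependent kinase 1 (CDK1) bound to cyclin B becomes active. Kinetochores built on centromeres then attach chromosomes to spindle microtubules under the watch of the spindle assembly checkpoint. Once all are attached, the anaphase-promoting complex (APC/C), a ubiquitin ligase, marks cyclin B and securin for destruction, and cytokinesis divides the cell. Many of these genes are transcribed late in the cell cycle from promoters with a cell cycle genes homology region (CHR), bound by the MuvB core of the DREAM complex, and CCAAT boxes, bound by the trimeric factor NF-Y. Confluent endothelial cells divide little, and transcripts of this kind are most abundant in the cells of a culture that still cycle.

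Promoter stretches are shown for 10 members because the letters of these elements recur in front of many of them, and because the 10 include members that fell strongly, weakly or did not pass. Each line gives the 120 bases before the annotated start, on the gene's own strand, from RefSeq on GRCm38.p6. Capitals mark TTTGAA or TTTAAA (the usual forms of the CHR) and CCAAT, on either strand, so that TTCAAA and ATTGG are matches on the opposite strand.
Cdk1, chr10:69352913-69353032, minus strand: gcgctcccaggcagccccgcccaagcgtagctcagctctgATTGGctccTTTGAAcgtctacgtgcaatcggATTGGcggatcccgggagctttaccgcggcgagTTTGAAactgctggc
Ccnb1, chr13:100786487-100786606, minus strand: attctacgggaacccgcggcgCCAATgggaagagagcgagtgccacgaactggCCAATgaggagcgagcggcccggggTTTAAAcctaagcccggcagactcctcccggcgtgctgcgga
Top2a, chr11:99024190-99024309, minus strand: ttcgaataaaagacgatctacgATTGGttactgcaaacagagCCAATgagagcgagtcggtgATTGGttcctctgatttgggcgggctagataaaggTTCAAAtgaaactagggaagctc
Kif11, chr19:37376262-37376381, plus strand: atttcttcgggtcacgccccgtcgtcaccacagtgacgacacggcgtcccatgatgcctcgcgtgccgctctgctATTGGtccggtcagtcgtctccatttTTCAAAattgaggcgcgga
Cdc20, chr4:118437344-118437463, minus strand: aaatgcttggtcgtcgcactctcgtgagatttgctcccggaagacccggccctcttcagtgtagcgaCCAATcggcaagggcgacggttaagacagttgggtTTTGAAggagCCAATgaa
Ube2c, chr2:164769809-164769928, plus strand: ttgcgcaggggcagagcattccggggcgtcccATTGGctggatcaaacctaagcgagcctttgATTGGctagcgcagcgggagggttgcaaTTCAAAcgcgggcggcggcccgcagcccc
Bub1, chr2:127831860-127831979, minus strand: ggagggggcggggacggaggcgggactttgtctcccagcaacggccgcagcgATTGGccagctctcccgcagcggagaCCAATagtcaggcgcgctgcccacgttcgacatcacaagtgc
Spc25, chr2:69206214-69206333, minus strand: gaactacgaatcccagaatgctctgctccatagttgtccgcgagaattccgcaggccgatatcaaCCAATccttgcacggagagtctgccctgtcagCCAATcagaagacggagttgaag
Mad2l1, chr6:66535101-66535220, plus strand: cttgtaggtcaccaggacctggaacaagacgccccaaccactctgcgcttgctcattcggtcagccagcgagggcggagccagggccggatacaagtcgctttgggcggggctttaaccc
Ube2s, chr7:4812341-4812460, minus strand: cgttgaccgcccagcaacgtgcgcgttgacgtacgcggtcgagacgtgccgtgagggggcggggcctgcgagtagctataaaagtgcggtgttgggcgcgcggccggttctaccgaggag

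In the first 6 of these stretches a CHR form and at least 1 CCAAT stand together. Bub1 and Spc25 show 2 CCAAT each and no CHR form in these 120 bases, and Mad2l1 and Ube2s show neither. RefSeq promoter windows of 300 bases (250 before to 50 after the start) were matched by symbol for 46 of the 56 members, in 51 windows. Members without an entry were Aurkb, Ccna2, Cdc25c, Foxm1, Incenp, Kif20a, Smc4, Spc24, Tpx2 and Wee1. Both strands were searched, overlapping matches were each counted, and a match is a run of letters, not a measured site.

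TTTGAA was found in 36 of the 51 member windows (70.6%), in 12.5% of the 13159 windows of all genes tested and in 17.9% of all 32851 windows. Within 50 bases of the start the shares were 62.7% of member windows, 3.1% of windows of genes tested and 4.9% of all windows. TTTAAA, which reads the same on both strands, was less frequent, at 17.6% of member windows, 9.3% of windows of genes tested and 13.2% of all windows. CCAAT was found in 72.5% of member windows, against 37.9% of windows of genes tested and 37.4% of all windows, and at least 2 CCAAT in 45.1%, against 14.3% and 11.7%. A CHR form together with CCAAT was present in 62.7% of member windows, 7.9% of windows of genes tested and 10.7% of all windows. Letters typical of E2F sites (TTTGGCGC, TTTCCCGC, TTTGCCGC or TTTCGCGC) stood in 7.8% of member windows, 3.9% of windows of genes tested and 2.3% of all windows. In the 125 windows of other mitosis genes, from the lists described further on, TTTGAA was found in 32.8%, CCAAT in 56% and the E2F letters in 14.4%, the last a higher share than in the members. In a window of only the 200 bases before the start, TTTGAA was found in 37.3% and CCAAT in 70.6% of member windows, since many TTTGAA matches lay just after the start. Counted by gene, 36 members had a CHR form, 32 had CCAAT, and 7 had none of the letters searched (Mad2l1, Mybl2, Ncaph, Nuf2, Nusap1, Pttg1 and Ube2s).

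**Figure D1:**
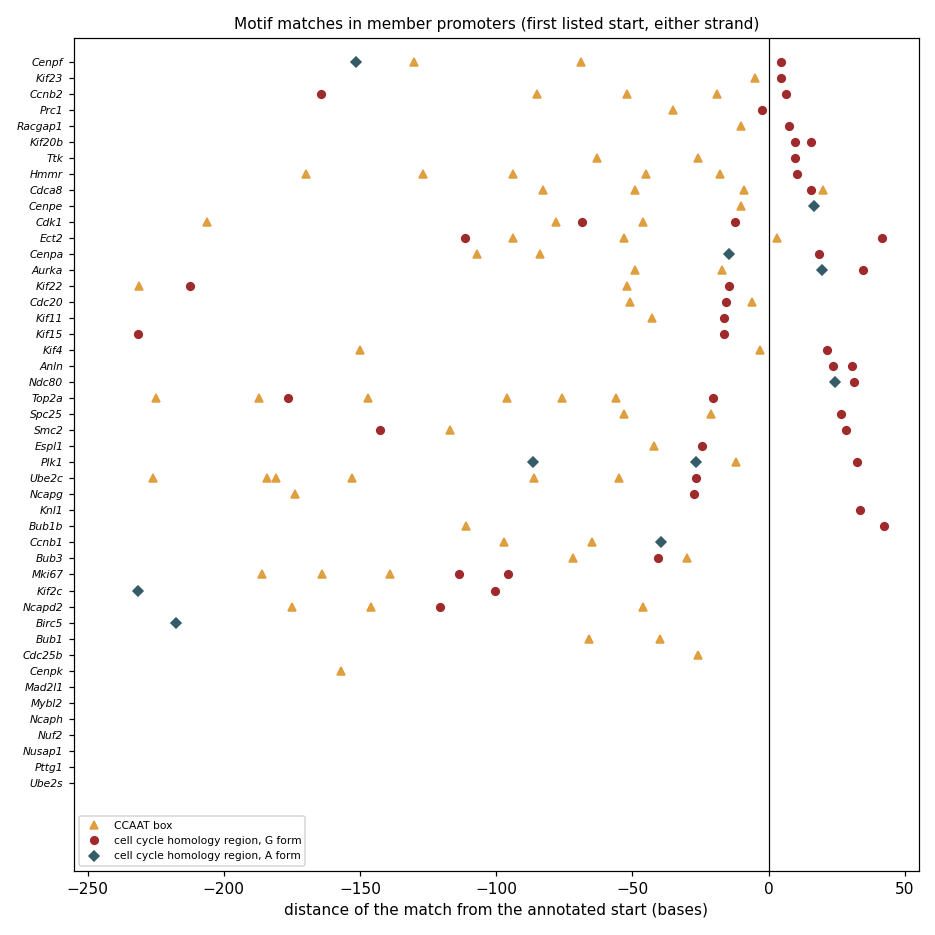
Position of motif matches in the promoter window of each member with a RefSeq entry (first listed start for members with several), with the distance from the annotated start in bases on the x axis and 1 gene per line. Triangles are CCAAT boxes, circles and diamonds the G and A forms of the CHR; most circles lie close to the start, and CCAAT boxes lie mostly before it.

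Levels are given as CPM, counts relative to a library size scaled by TMM (a method that takes most genes as unchanged), and changes are log2 ratios of DTG to DMSO with their standard error (SE). Tests are edgeR's quasi-likelihood F-test with Benjamini-Hochberg adjustment over all 14101 genes, at a threshold of 0.05. Total counts ran from 41162353 to 56316335 per library. DMSO and DTG libraries lay on opposite sides of the first principal component, which held 80.2% of variance. Of 10 endothelial markers none was absent and 8 were lower in DTG, where 29.3% of all genes tested were lower. The summed level of the 10 was 11257 to 12274 CPM in DMSO and 6968 to 7327 CPM in DTG. Of 32 markers of other cell types of the brain and vessel wall, 27 were under 1 CPM in every library. The exceptions included the microglial marker Tmem119 (26.7 ± 2.98 CPM in DMSO, 6.93 ± 0.766 in DTG, SD, n = 3 each) and the neuronal tubulin Tubb3 (0.103 ± 0.0135 and 4.59 ± 2.15). All other listed markers of microglia, macrophages and neurons were under 1 CPM in every library. Pdgfra and Col1a1, also among the exceptions, stayed below 8 CPM. Summed by list, markers of pericytes reached at most 0.871 CPM, of smooth muscle 0.643 CPM, of astrocytes 0.138 CPM and of fibroblasts 8.53 CPM in any library. The sums reached 29.5 CPM for microglia and macrophages, in DMSO, and 6.04 CPM for neurons, in DTG. Rgs5, Kcnj8, Cnn1, Aqp4, P2ry12, Mog and Olig2 were at 0 in all 6 libraries. The part of these shifts in the results for mitosis genes was not tested.

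Nearly all mitosis genes had lower transcript levels in DTG. Of the 56 members 52 fell, none rose and 4 did not pass (Bub3, Ube2s, Cenpk and Smc4), where 29.3% of all genes tested fell and 27.4% rose. The median change over the members was -0.95, and over all genes tested -0.01. In 54 of 56 members every DTG library lay below every DMSO library, which was so for 33.1% of all genes tested, and in none did every DTG library lie above. A fall of at least 1 on the log2 scale was seen in 24 members, against 8.35% of all genes tested. The fall was of similar size in most: 44 of the 52 lay between 0.7 and 1.2, 2 were larger (Nusap1 and Mki67, both past -1.2) and 6 smaller. Adjusted p-values of the 52 ranged from 2.99e-06 to 0.0236. The levels of all members summed to 3074, 3327 and 3516 CPM in the DMSO libraries and to 1876, 1889 and 1959 CPM in the DTG libraries. Members took between 0.328% and 0.371% of the counts in DMSO and between 0.176% and 0.184% in DTG, with no overlap. In bulk samples, fewer cells in division and less of these RNAs per dividing cell cannot be told apart.

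**Figure D2:**
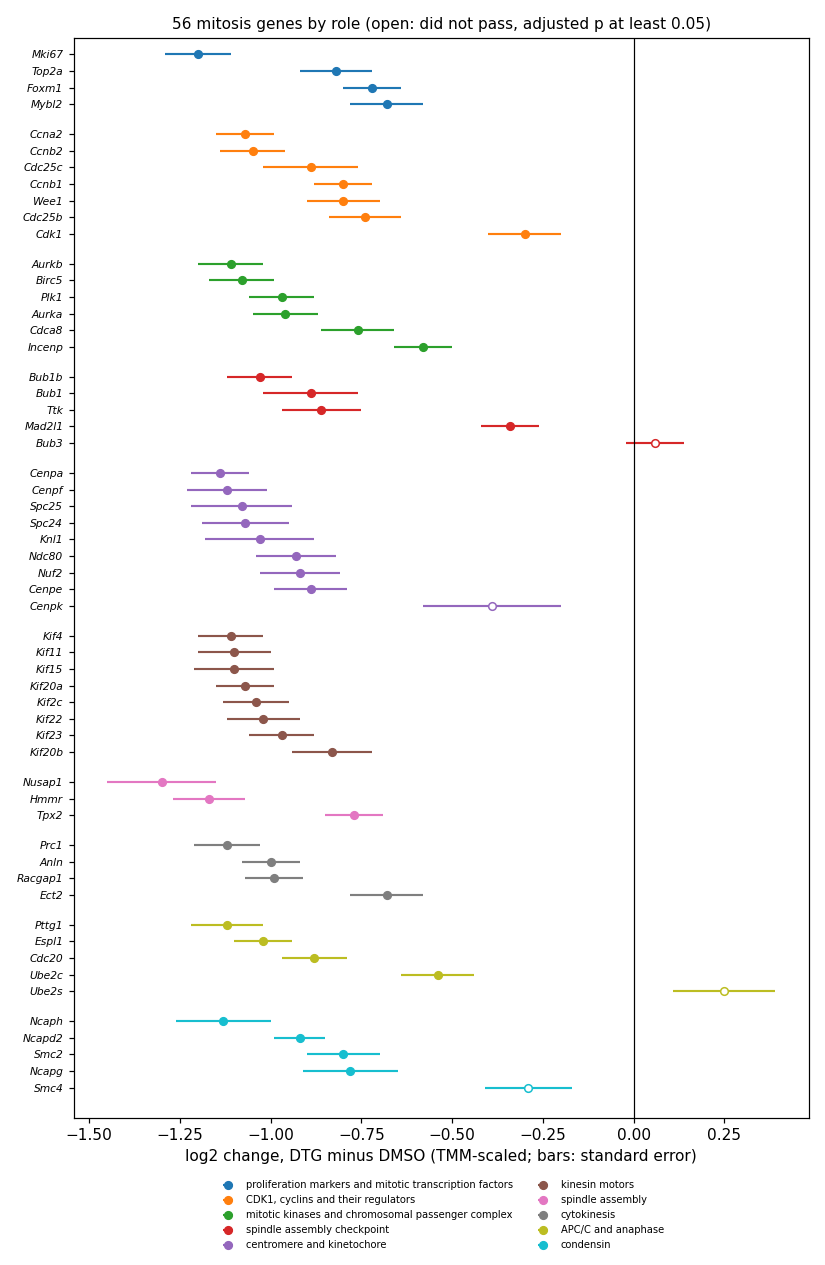
Log2 change (DTG minus DMSO, x axis) of each of the 56 mitosis genes, grouped and coloured by role; bars are the standard error and open circles did not pass the adjusted p threshold. Most lie between -0.7 and -1.2, with Cdk1, Mad2l1, Cenpk, Smc4, Bub3 and Ube2s to the right.

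Scaled by exon length, Ube2s (61.4 CPM per kb) and Top2a (60.3) had the highest levels in DMSO, followed by Prc1 (35.7) and Cenpa (33.7). Cenpk (1.78), Cdc25c (3.26) and Knl1 (3.64) had the lowest. In DTG, Ube2s stood at 72.9 CPM per kb and Top2a at 34.1, so the pair that was close in DMSO was apart in DTG.

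All 4 proliferation markers and mitotic transcription factors fell, with a median of -0.77. Mki67, which encodes the Ki-67 protein that coats mitotic chromosomes, was at 268.7, 255.5 and 319.0 CPM in the DMSO libraries and at 124.4, 117.0 and 125.1 CPM in the DTG libraries, a change of -1.20 ± 0.09 (SE, edgeR adjusted p = 4.24e-06). Top2a, the topoisomerase that untangles sister chromatids, was at 279.4, 302.0 and 363.3 CPM and then 171.0, 179.3 and 183.5 CPM (-0.82 ± 0.10, adjusted p = 6.98e-05). For both, DMSO replicate 3 was the highest library and the DTG libraries lay close together below all DMSO libraries. Foxm1, a transcription factor for genes of G2 and mitosis, was at 62.7, 65.8 and 63.9 CPM with DMSO and 36.4, 39.5 and 41.1 CPM with DTG (-0.72 ± 0.08, adjusted p = 3.10e-05). Mybl2, which encodes the MuvB partner B-Myb, was at 13.8, 14.4 and 13.1 CPM and 9.57, 8.15 and 8.15 CPM (-0.68 ± 0.10, adjusted p = 3.39e-04). Both factors had a narrow spread in DMSO and no overlap between groups, and their changes were nearer to 0 than that of Mki67.

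The 7 genes of CDK1, its cyclins and their regulators all fell, with a median of -0.80, and the kinase itself changed least. Cdk1 was at 107.8, 130.8 and 110.9 CPM with DMSO and 84.9, 96.7 and 101.9 CPM with DTG (-0.30 ± 0.10, edgeR adjusted p = 0.0236). The groups were apart by a small gap, between 101.9 and 107.8 CPM, and the call was lost without DMSO replicate 2 (adjusted p = 0.105), DTG replicate 1 (0.0987) or DTG replicate 2 (0.0686). Its activating cyclins fell further. Ccna2, cyclin A2, was at 74.6, 84.9 and 88.0 CPM and 39.4, 38.2 and 40.4 CPM (-1.07 ± 0.08, adjusted p = 4.28e-06). Ccnb1, cyclin B1, was at 43.8, 47.4 and 45.3 CPM and 24.9, 26.6 and 26.8 CPM (-0.80 ± 0.08, adjusted p = 1.65e-05). Ccnb2, cyclin B2, fell by 1.05. For the 3 cyclins the highest DTG library was well below the lowest DMSO library.

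Genes for enzymes that act on CDK1 in opposite directions fell alike in sign. Cdc25b and Cdc25c encode phosphatases that activate CDK1. Cdc25b was at 46.6, 52.3 and 46.4 CPM with DMSO and 32.3, 26.1 and 28.4 CPM with DTG (-0.74 ± 0.10, edgeR adjusted p = 1.16e-04). Cdc25c, one of the least abundant members, was at 6.99, 5.71 and 6.31 CPM and 3.23, 3.61 and 3.38 CPM (-0.89 ± 0.13, adjusted p = 2.18e-04). Wee1, the kinase that holds CDK1 inactive, was at 36.0, 41.9 and 41.9 CPM and 25.2, 21.5 and 21.9 CPM (-0.80 ± 0.10, adjusted p = 6.98e-05). None of the 3 overlapped between groups.

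All 6 mitotic kinases and members of the chromosomal passenger complex fell, with a median of -0.97. Plk1, Polo-like kinase 1, was at 45.2, 48.8 and 42.2 CPM with DMSO and 21.3, 23.8 and 24.3 CPM with DTG (-0.97 ± 0.09, edgeR adjusted p = 1.23e-05). Aurka, the Aurora kinase of centrosomes and spindle poles, fell by 0.96. The passenger complex, which corrects faulty attachments, consists of Aurora B, INCENP, survivin and borealin. Aurkb, its kinase, was at 28.1, 31.8 and 29.5 CPM and 14.2, 13.1 and 14.3 CPM (-1.11 ± 0.09, adjusted p = 5.20e-06). Birc5, survivin, was at 39.5, 46.5 and 43.7 CPM and 19.8, 20.1 and 21.6 CPM (-1.08 ± 0.09, adjusted p = 5.98e-06). Incenp, the scaffold, was at 88.2, 83.1 and 82.0 CPM and 51.3, 59.6 and 58.6 CPM (-0.58 ± 0.08, adjusted p = 1.93e-04). Incenp thus had the smallest change of this group, although its libraries also did not overlap. Cdca8, borealin, fell by 0.76.

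Of the 5 spindle assembly checkpoint genes 4 fell, with a median of -0.86 over the 5. Bub1b, which encodes the checkpoint protein BubR1, was at 46.4, 52.8 and 51.9 CPM with DMSO and 26.2, 23.3 and 24.4 CPM with DTG (-1.03 ± 0.09, edgeR adjusted p = 6.21e-06). Bub3, the partner that brings BUB1 and BubR1 to kinetochores, was at 113.3, 129.0 and 109.7 CPM and 117.9, 121.5 and 127.5 CPM (0.06 ± 0.08, adjusted p = 0.556). Its groups overlapped fully, and its sign turned to -0.11 when libraries were scaled by size alone and to -0.03 with upper-quartile factors. Bub1, a checkpoint kinase, fell by 0.89 and Ttk, the kinase MPS1 that starts checkpoint signalling, by 0.86. Mad2l1, which encodes the APC/C inhibitor MAD2, was at 37.5, 42.0 and 43.5 CPM and 33.1, 30.9 and 33.4 CPM (-0.34 ± 0.08, adjusted p = 0.00625). Its fall was the smallest of the 4, and the call was lost without DTG replicate 2 (adjusted p = 0.0543).

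Centromere and kinetochore genes fell in 8 of 9 cases, with a median of -1.03. Cenpa, the histone H3 variant that marks centromeres, was at 52.4, 58.3 and 55.4 CPM with DMSO and 23.3, 26.0 and 26.3 CPM with DTG (-1.14 ± 0.08, edgeR adjusted p = 2.99e-06). Its adjusted p was the smallest of the 56. Cenpe, a kinetochore motor that brings chromosomes to the spindle equator, was at 49.2, 44.8 and 57.4 CPM and 25.9, 26.5 and 29.1 CPM (-0.89 ± 0.10, adjusted p = 4.82e-05). Cenpf, a protein of the outer kinetochore, was at 66.7, 58.8 and 78.4 CPM and 29.1, 32.1 and 32.8 CPM (-1.12 ± 0.11, adjusted p = 1.72e-05). In both, DMSO replicate 3 stood highest and the DTG libraries varied little.

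The NDC80 complex, which grips microtubules, has the subunits NDC80, NUF2, SPC24 and SPC25, and all 4 genes fell by 0.92 to 1.08. Ndc80 was at 15.7, 19.1 and 19.3 CPM with DMSO and 9.29, 9.31 and 9.77 CPM with DTG (-0.93 ± 0.11, edgeR adjusted p = 4.92e-05), Nuf2 fell by 0.92, Spc24 by 1.07 and Spc25 by 1.08. Knl1, the scaffold on which checkpoint proteins gather, was at 26.0, 27.2 and 40.1 CPM and 14.8, 15.3 and 15.4 CPM (-1.03 ± 0.15, adjusted p = 2.47e-04). Its DMSO replicate 3 was far above the other DMSO libraries, and all DTG libraries were below them. Cenpk, of the inner kinetochore and the least abundant member, was at 2.66, 2.87 and 4.26 CPM and 2.53, 2.45 and 2.45 CPM (-0.39 ± 0.19, adjusted p = 0.103). The groups were apart by little and the difference did not pass.

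**Figure D3:**
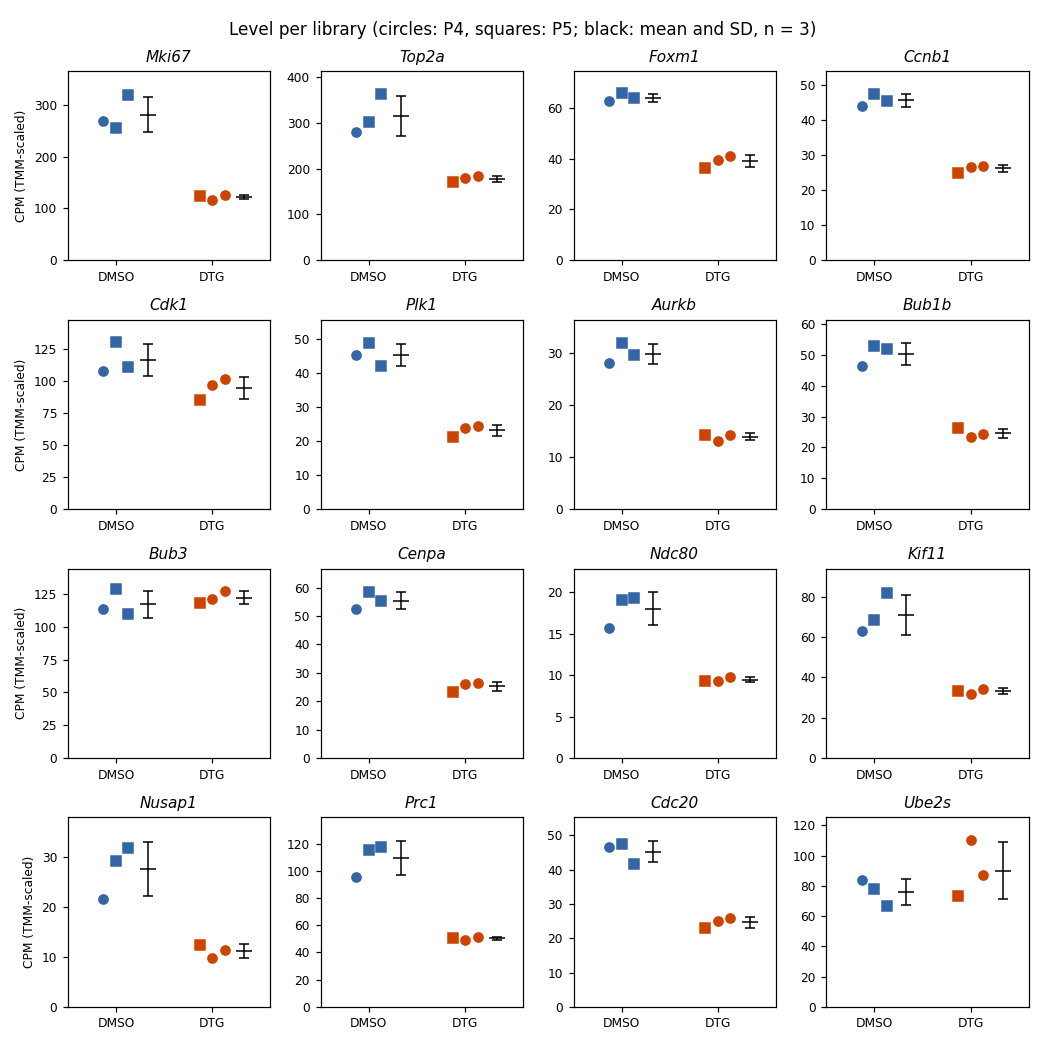
CPM (TMM-scaled, y axis from 0) of 16 mitosis genes in each DMSO (blue) and DTG (orange) library; circles are P4 and squares P5 libraries, and black marks give the mean and SD of 3 libraries. The groups are apart in each panel except those of Bub3 and Ube2s, and narrowly so for Cdk1.

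All 8 kinesin genes fell, within a range of -1.11 to -0.83 and with a median of -1.05. Kif11, the motor Eg5 that pushes spindle poles apart, was at 62.8, 68.3 and 82.0 CPM with DMSO and 33.4, 31.6 and 34.3 CPM with DTG (-1.10 ± 0.10, edgeR adjusted p = 1.30e-05). Kif15, which can share this task, fell by 1.10. Kif4, a chromosome-bound kinesin, was at 38.5, 42.2 and 47.8 CPM and 19.3, 20.1 and 20.2 CPM (-1.11 ± 0.09, adjusted p = 7.30e-06), the largest change of the group. Kif22, a motor that pushes chromosome arms away from the poles, was at 31.7, 36.5 and 30.7 CPM and 17.4, 15.2 and 16.2 CPM (-1.02 ± 0.10, adjusted p = 1.61e-05). Kif2c, the microtubule depolymerase MCAK, fell by 1.04. In each of these 5 the highest DTG library lay below the lowest DMSO library.

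The remaining kinesins act in late mitosis. Kif20a, which carries the passenger complex to the spindle midzone, was at 50, 56.6 and 53.4 CPM with DMSO and 24.7, 25.5 and 26.2 CPM with DTG (-1.07 ± 0.08, edgeR adjusted p = 3.33e-06). Kif23, the motor subunit of the centralspindlin complex, was at 52.1, 57.5 and 61.5 CPM and 27.2, 28.2 and 31.8 CPM (-0.97 ± 0.09, adjusted p = 1.49e-05). Kif20b, a relative of Kif20a needed to complete cytokinesis, was at 41.2, 42.1 and 52.7 CPM and 26.8, 22.6 and 27.0 CPM (-0.83 ± 0.11, adjusted p = 1.65e-04). Kif20b had the smallest change among the kinesins, and again no overlap.

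The 3 spindle assembly genes fell, with a median of -1.17. Nusap1, a protein that bundles microtubules near chromosomes, was at 21.5, 29.3 and 31.9 CPM with DMSO and 12.4, 9.74 and 11.3 CPM with DTG (-1.30 ± 0.15, edgeR adjusted p = 5.31e-05). That was the largest fall of the 56, with a wide spread in DMSO. Hmmr, a spindle pole protein and hyaluronan receptor, was at 38.8, 41.9 and 49.3 CPM and 19.5, 18.3 and 19.8 CPM (-1.17 ± 0.10, adjusted p = 7.90e-06). Tpx2, which activates Aurora A on the spindle, was at 77.1, 88.7 and 88.2 CPM and 48.4, 50.9 and 50 CPM (-0.77 ± 0.08, adjusted p = 2.75e-05). Tpx2 had the smallest change of the 3, with DTG libraries close together.

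Cytokinesis genes fell in 4 of 4 cases, with a median of -1.0. Anln, anillin, which links the contractile ring to the membrane, was at 82.7, 85.8 and 92.2 CPM with DMSO and 43.6, 41.7 and 44.6 CPM with DTG (-1.0 ± 0.08, edgeR adjusted p = 3.56e-06). Prc1, which crosslinks the microtubules of the midzone, was at 95.5, 115.4 and 118.0 CPM and 50.5, 49.5 and 51.6 CPM (-1.12 ± 0.09, adjusted p = 5.67e-06). Racgap1, the partner of Kif23 in centralspindlin, fell by 0.99. Ect2, the exchange factor that activates RhoA at the equator, was at 32.9, 36.8 and 41.7 CPM and 23.9, 21.9 and 23.6 CPM (-0.68 ± 0.10, adjusted p = 2.38e-04). Ect2 thus fell least, and its groups were apart like those of the other 3.

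The genes of APC/C function and anaphase fell in 4 of 5 cases, with a median of -0.88. Cdc20, the activator that brings substrates to the APC/C, was at 46.6, 47.6 and 41.7 CPM with DMSO and 23.0, 24.9 and 26.0 CPM with DTG (-0.88 ± 0.09, edgeR adjusted p = 1.91e-05). Pttg1, securin, was at 25.8, 28.2 and 24.2 CPM and 11.3, 12.3 and 12.5 CPM (-1.12 ± 0.10, adjusted p = 7.97e-06). Espl1, separase, the protease that securin restrains and that opens cohesin rings, was at 40.5, 43.1 and 41.5 CPM and 21.2, 20.0 and 20.2 CPM (-1.02 ± 0.08, adjusted p = 3.52e-06). None of the 3 overlapped between groups, the protease and its inhibitor included.

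The ubiquitin-conjugating enzymes that serve the APC/C differed in their values. Ube2c, which starts ubiquitin chains, was at 43.6, 53.5 and 46.1 CPM with DMSO and 29.5, 33.2 and 35.5 CPM with DTG (-0.54 ± 0.10, edgeR adjusted p = 0.00118). Ube2s, which extends them, was at 83.9, 77.7 and 66.4 CPM and 73.0, 110.6 and 87.0 CPM (0.25 ± 0.14, adjusted p = 0.170). The Ube2s groups overlapped, DTG replicate 2 was the highest library, and the gene passed as higher only without DTG replicate 1 (adjusted p = 0.0172).

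Condensin, the ring complex that compacts chromosomes, had 4 of 5 genes lower, with a median of -0.80. Ncapd2, a regulatory subunit, was at 98.3, 100.5 and 99.9 CPM with DMSO and 54.7, 51.1 and 52.4 CPM with DTG (-0.92 ± 0.07, edgeR adjusted p = 3.64e-06). Ncaph, the kleisin subunit that closes the ring, was at 35.2, 45.0 and 43.9 CPM and 22.6, 16.7 and 17.4 CPM (-1.13 ± 0.13, adjusted p = 6.45e-05). Ncapg, a further regulatory subunit, fell by 0.78. These 3 belong to condensin I alone, whereas the ATPase subunits SMC2 and SMC4 are shared with condensin II. Smc2 was at 73.8, 77.4 and 93.3 CPM and 50, 42.2 and 47.8 CPM (-0.80 ± 0.10, adjusted p = 1.15e-04). Smc4 was at 105.1, 104.6 and 139.8 CPM and 99.9, 88.0 and 97.2 CPM (-0.29 ± 0.12, adjusted p = 0.0506). Smc4 was just outside the threshold with DTG libraries close below the DMSO libraries. It passed without DMSO replicate 1 (adjusted p = 0.0416) or DMSO replicate 2 (0.0419). It did not pass without any other single library, including DMSO replicate 3, its highest at 139.8 CPM.

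The 10 roles resembled one another in direction, and no role had a member that rose. Role medians ran from -1.17 for spindle assembly to -0.77 for proliferation markers and factors. The members with the smallest changes lay in several roles: Cdk1 among CDK1 regulators, Bub3 and Mad2l1 in the checkpoint, Cenpk at the kinetochore, Ube2s at the APC/C and Smc4 in condensin. The other roles held none of these members.

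Ratios of counts between members of the same complex within a library do not depend on the scaling. The pairs were chosen after the values were seen, so no test is given, and counts are not per length. The ratio of Ccnb1 to Cdk1 was 0.406, 0.362 and 0.409 in DMSO and 0.294, 0.275 and 0.263 in DTG. That of Bub1b to Bub3 was 0.410, 0.409 and 0.473 and then 0.222, 0.192 and 0.192. For Aurkb to Incenp it was 0.319, 0.383 and 0.360, against 0.276, 0.220 and 0.244. In these pairs, and in Ccna2 to Cdk1, Ube2c to Ube2s and Ncaph to Smc4, every DTG library lay below every DMSO library. Each of these pairs sets a member that fell further over one that changed less, so the ratios restate the changes given above. By contrast, Ndc80 to Nuf2 had a ratio of 0.468 ± 0.0179 in the DMSO libraries and 0.465 ± 0.0186 under DTG (n = 3 each, SD), and Spc24 to Spc25 at 0.798 ± 0.126 and 0.790 ± 0.00300. The overlapping ratios of these NDC80 complex pairs likewise restate the similar falls of their members.

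Further genes of the same processes, in 6 lists with 128 names, were examined in the same test, and 127 were tested. Of these 83 fell (65.4%), 10 rose and 34 did not pass, with a median of -0.50, where 29.3% of all genes tested fell and 27.4% rose. The list of other spindle, motor and cytokinesis genes was closest to the members, with 27 of 32 lower, none higher and a median of -0.88. Iqgap3, a scaffold protein, fell from 63.7 ± 4.75 to 24.9 ± 0.471 CPM (SD, n = 3 each; -1.35 ± 0.08 SE, edgeR adjusted p = 8.89e-07), and Kif14, a kinesin of cytokinesis, fell by 1.30. Of other centromere and kinetochore genes 22 of 30 fell (median -0.69), among them Hjurp, the chaperone that loads CENP-A (-0.74), and Kntc1 (-1.10), a subunit of the complex that recruits dynein. Of other kinases, checkpoint genes and CDK1 regulators 14 of 18 fell (median -0.60), among them Ccnf, cyclin F (-0.86), and the centrosomal kinase Nek2 (-0.95).

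A few genes of these lists rose. Mis12, a kinetochore subunit, rose from 42.5 ± 2.04 to 63.1 ± 4.82 CPM (SD, n = 3 each; 0.57 ± 0.08 SE, edgeR adjusted p = 2.39e-04) and Zwint, a binding partner of KNL1, from 125.1 ± 1.51 to 184.2 ± 8.78 CPM (0.56 ± 0.07, adjusted p = 9.86e-05). Both passed under all 16 alternative settings. Cdc25a, a phosphatase that activates cyclin-dependent kinases earlier in the cycle, rose by 0.33 and did not pass with library size alone (0.16, adjusted p = 0.0971). Cks1b, a CDK subunit, rose by 0.26 and passed in 11 of 16 settings, not with library size alone (0.08, adjusted p = 0.436), upper-quartile factors (0.140) or without DMSO replicate 1 (adjusted p = 0.0991), DMSO replicate 3 (0.0689) or DTG replicate 3 (0.0599).

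Of the list of APC/C core subunits, which also holds the activator Fzr1, most did not pass. A fall was seen in 4 of 15 (Anapc2, Anapc5, Anapc11 and Anapc13, of which Anapc2 and Anapc13 were named after their values were seen), none rose, and the median was -0.05. The largest change, of Anapc5, was from 356.0 ± 13.7 to 269.9 ± 17.4 CPM (SD, n = 3 each, -0.40 ± 0.08 SE, edgeR adjusted p = 0.00141). Anapc11, the RING subunit, fell by 0.37, with overlap between its groups. The count was 1 without DMSO replicate 2, DTG replicate 2 or DTG replicate 3, 2 without DMSO replicate 1, and 8 with library size alone. Its share, 26.7%, was near the 29.3% of all genes tested.

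In the list of cohesin and condensin II genes 9 of 16 fell (56.2%, against 29.3% of all genes tested), with a median of -0.23. Cdca5, sororin, which protects cohesion, fell by 1.05 and the condensin II subunit Ncapd3 by 0.81. Pds5a and Wapl, which together help to release cohesin, rose by 0.28 and 0.36, and neither passed with library size alone, with upper-quartile factors, without DMSO replicate 1 (adjusted p = 0.0530 and 0.0695) or without DMSO replicate 2 (0.0686 and 0.0794). Pds5a also did not pass without DTG replicate 3 (0.0513).

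Genes of the DREAM and MuvB complexes and NF-Y, whose usual binding letters were searched in the promoters, changed in both directions. Of 16 tested, 7 fell (43.8%) and 4 rose, with a median of -0.08. Of all genes tested 29.3% fell and 27.4% rose. Tfdp2, a dimer partner of E2F factors, fell from 18.0 ± 1.54 to 6.57 ± 1.46 CPM (SD, n = 3 each; -1.45 ± 0.15 SE, edgeR adjusted p = 2.64e-05). Rbl2, the pocket protein p130 of DREAM, fell from 33.4 ± 1.55 to 16.5 ± 2.90 CPM (-1.02 ± 0.12, adjusted p = 6.03e-05). Nfya, the NF-Y subunit that contacts CCAAT, rose from 82.9 ± 0.544 to 113.3 ± 5.35 CPM (0.45 ± 0.07, adjusted p = 3.86e-04) and passed in all 16 settings. Nfyb (0.46), Lin52 (0.43) and E2f4 (0.37) also rose, but did not pass with library size alone. Transcript levels do not measure binding.

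**Figure D4:**
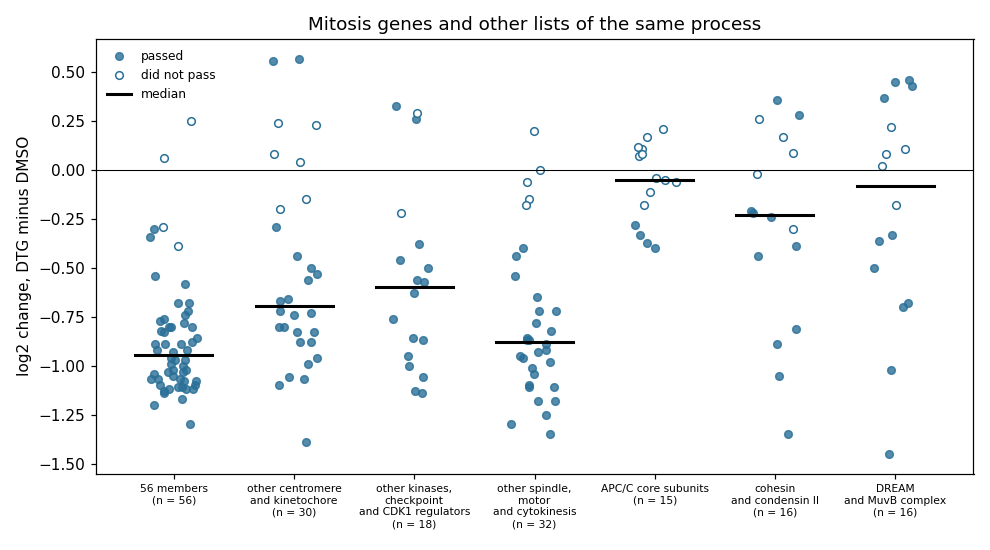
Log2 change (DTG minus DMSO, y axis) of the 56 mitosis genes (leftmost column) and of 6 lists of other genes of the same processes; each point is a gene, filled where it passed, and bars are medians. The members and the other spindle genes lie low (medians -0.95 and -0.88). The list of APC/C core subunits, which also holds Fzr1, lies around 0 (median -0.05).

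Members with and without the promoter letters had overlapping ranges of change. The median was -0.98 (range -1.20 to 0.06) for the 36 members with a CHR form and -0.81 (-1.30 to 0.25) for the 10 with a window but no CHR form. It was -0.94 for the 32 with CCAAT and -1.02 for the 14 without. Of the 7 members with none of the letters, Nusap1, Ncaph and Pttg1 were among the larger falls, and Mad2l1 and Ube2s among the smallest changes. Cdk1, with 2 TTTGAA and 2 CCAAT in the printed stretch, fell by 0.30, and Bub3, which also has both elements in its window, did not pass.

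Differences between DTG and DMSO were also computed within each library tag. The median difference over the members was -0.80 among P4 libraries (1 DMSO, 2 DTG) and -0.96 among P5 libraries (2 DMSO, 1 DTG). All 52 genes that fell were lower in DTG within both tags. Their groups did not overlap, so no other outcome was possible. The P5 difference was the lower of the pair in 48 of 56 members (85.7%), against 48.4% of all genes tested. These members share the same libraries and are not independent. The members summed to 3074 CPM in the P4 DMSO library and to 3327 and 3516 CPM in the P5 DMSO libraries. In DTG they summed to 1889 and 1959 CPM in P4 and to 1876 CPM in P5. With 1 DMSO library in P4 and 1 DTG library in P5, an interaction test can call few genes, so it cannot exclude a difference between tags. No gene passed a test of the treatment by tag interaction (edgeR, 0 of 14101, 0%). At an unadjusted p under 0.05 it held 3 members (Nuf2, Spc25 and Ube2c, named after their values were seen) and 1351 genes in all (9.58%). In Ube2c the differences were -0.34 within P4 and -0.74 within P5, in Nuf2 -0.67 and -1.06, and in Spc25 -0.72 and -1.12.

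**Figure D5:**
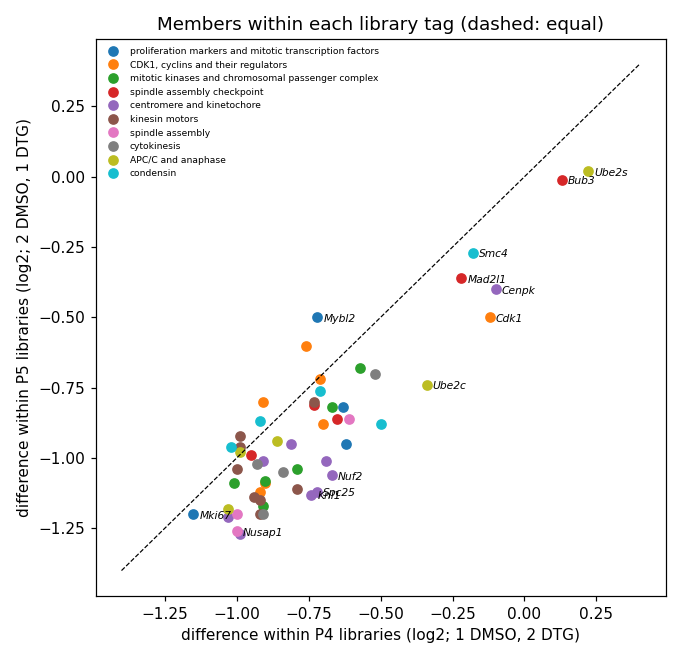
Difference between DTG and DMSO (log2 CPM with a pseudocount of 0.5) within P4 libraries (x axis) and within P5 libraries (y axis) for each mitosis gene, coloured by role, with the dashed line where both are equal. Most points lie below the line, and 48 of 56 have the lower value in P5.

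DMSO replicate 3 was the highest DMSO library in 27 of 56 members, a count not made over all genes. Its excess moved with gene length, in the members and in all genes. Over the 56 members, the log2 excess of this library over the other DMSO libraries correlated with log2 exon length at Pearson's r = 0.48 and Spearman's rho = 0.49, and over 13732 genes with a length at r = 0.34. These points are genes that share the same 3 libraries. The median excess was 0.30 in the 9 members with over 5 kb of exons, such as Knl1, Cenpf and Mki67, and 0.00 in the 11 under 2 kb. Over all genes with a length, the median excess of this library was 0.08 above 5 kb and -0.14 under 2 kb. Without this library the median change of the long members was -0.79 in place of -0.89 and that of the short members -0.97 in place of -0.96. The cause was not tested.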

How the data were processed

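The authors deposited a table of whole-number counts per Ensembl gene identifier, not normalized, for the 6 libraries of poly(A) RNA. Per the submitters' processing notes the build was GRCm39. The aligner, counter, strand setting, annotation and treatment of reads shared between near-identical copies were not given in the sources used here. For DTG replicate 1 the column name reads DIG, and its remaining parts matched it to that sample. A reference table named 38606 identifiers (89.2%), and unnamed ones held 0.327% to 0.486% of counts. Lin54, of the DREAM list, matched no identifier and was not analysed here. Of the cell type markers, 1 is not reported here.

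Counts were analysed with edgeR 4.0.16 in R 4.3.3: genes kept by filterByExpr on the groups, TMM scaling, robust quasi-likelihood fit with the group as the only term, and Benjamini-Hochberg adjustment. SE is the size of the log2 change over the root of the F statistic. Adjusted p-values come from this test unless an alternative setting is named. At totals of 41162353 to 56316335 counts per library, counting error was not estimated separately. It weighs most on members with few counts, such as Cenpk. Exon lengths came from GENCODE M21 and promoters from RefSeq, both on GRCm38.p6, another build than that of the counts. The pipeline was tested on simulated counts.

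Alternatives were DESeq2 1.42.0, limma-voom (limma 3.58.1), other scalings and count filters, no robust estimation, the P tag as a term, a replicate block and leaving out each library. Differences within a tag, ratios between members, counts per list under each alternative and the split by length were added after seeing the data. Members and lists were chosen with earlier results of these data known. Per-library values are given for a set list of members and, in each role, for the largest and smallest change. Of the other lists, the 2 smallest p-values and the genes that passed against the direction of most are named. Figures used matplotlib 3.10.9 under Python 3.11.15.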

Additional observations from a re-analysis of the deposited data

How the results depend on the processing

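Each of the 56 members was recomputed under 16 alternatives. Of these 896 values 880 kept their direction and side of the threshold, and 50 members did so under every alternative. The number of members that fell was 52 with DESeq2, limma-voom and RLE factors, 54 with upper-quartile factors and when scaled by library size alone, and 50 to 53 when 1 library was left out, while 17.8% to 40.6% of all genes tested fell over the alternatives. Left-out libraries gave medians of the members from -1.02 to -0.90 and counts of other mitosis genes that fell from 72 to 84. Library size alone moved the members' median to -1.12, the median of all genes by -0.17, and the share of calls that were higher from 48.3% to 30.7% (38.2% with upper-quartile factors). It also turned Bub3 to -0.11, as upper-quartile factors did to -0.03, with adjusted p-values of 0.220 to 0.892 over all alternatives. Adjusted p-values ranged from 0.00175 to 0.105 for Cdk1, from 5.33e-04 to 0.0543 for Mad2l1, from 0.00587 to 0.220 for Smc4, from 0.0266 to 0.354 for Cenpk (passed with library size alone and, narrowly, with upper-quartile factors) and from 0.0172 to 0.669 for Ube2s. Smc4 also passed with library size alone (0.00587), upper-quartile factors (0.0157), no filter (0.0318), a 1 CPM filter (0.0492) and the block (0.0392). Deviations from the group means correlated at -0.282, 0.009 and -0.052 between DMSO and DTG libraries with the same title number. The 4 pairs with the same P tag correlated at 0.105 to 0.196. Libraries with the same title number always differ in tag, so these values cannot tell whether title numbers pair the libraries. With the tag as a term 52 members and 82 of the other mitosis genes fell. With the title numbers as a replicate block 53 members and 80 of the other mitosis genes fell, and the members' median was -0.94. The lowest member count was 118, in Cenpk, whose SE (0.19) was the largest of the members, and what depth adds to it was not tested.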

Other observations

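Within the further lists, subunits of single complexes gave unlike values, and these genes were chosen after their values were seen. Of the 8 subunits of augmin, a complex that takes part in forming microtubules inside the spindle, Haus1 (-0.40), Haus4 (-0.96), Haus5 (-0.93) and Haus8 (-0.72) fell. Haus2 (0.20), Haus3 (-0.06), Haus6 (-0.18) and Haus7 (0.00) did not pass (edgeR adjusted p from 0.0916 to 0.997). In the MIS12 complex of the kinetochore, Nsl1 fell by 0.99, Pmf1 by 0.56 and Dsn1 by 0.53, while Mis12 itself rose by 0.57. In condensin II, Ncapg2 fell by 0.89, Ncapd3 by 0.81 and Ncaph2 by 0.21. Cohesin acetyltransferases also gave unlike values, with Esco2 at -1.35 (adjusted p = 1.35e-04) and Esco1 at 0.26 (adjusted p = 0.0739).

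Among the E2F factors of the DREAM list, E2f7 fell from 25.7 ± 1.35 to 20.0 ± 1.29 CPM (SD, n = 3 each), a change of -0.36. E2f8 fell from 34.5 ± 2.17 to 27.4 ± 2.80 CPM (-0.33). By contrast, E2f4 rose by 0.37 (edgeR adjusted p = 0.00787), and E2f5 did not pass (0.11, adjusted p = 0.420). The pocket protein gene Rbl1, p107, fell by 0.70 and Mybl1, a relative of Mybl2, by 0.68. Lin9, a MuvB subunit, fell by 0.50, while Lin37 (0.22, edgeR adjusted p = 0.112) and Rbbp4 (0.02, adjusted p = 0.891) did not pass.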
